A study of Mus musculus with 2 samples.

Results

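Interleukins are secreted proteins by which immune cells, keratinocytes and fibroblasts signal to each other, and each acts through receptor chains on the receiving cell. Their genes were read here in wounded mouse back skin with and without epidermal beta-catenin. The genes were chosen by symbol, as every symbol of the array that starts with Il and a digit, without the 2 former names of chemokine receptors that start with Il8r. The choice uses no measured value. It gave 76 of 18120 gene symbols, read by 108 of 25697 probes. Of these, 43 genes had a brightest probe detected on at least 1 array, against 9814 of all 18120.

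The knockout sample came from C57BL6 mice with both beta-catenin alleles floxed (b-catenin fl/fl) and Cre recombinase driven by keratin 14 (K14), so that deletion is expected in keratinocytes that express or once expressed keratin 14, and not in the immune cells, fibroblasts and vessels of the same tissue. The control sample came from littermates with the genotype b-catenin fl/fl and no Cre named. All mice were 3 months old and on a low calcium diet. Each had 2 full-thickness back wounds of 6 mm, cut out after 3 days with an 8-mm punch, and each sample held RNA of 3 mice, by the series' design text.

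There was 1 array for the knockout and 1 for the control, so no difference below has an error estimate or a test, and a fold is a difference between these 2 arrays. Raw intensities, the mean brightness of the beads of a probe, ran from 120.4 to 40969.4 on the knockout array and from 118.5 to 40798.1 on the control array. A probe was called detected at 177.9 or more on the knockout array and at 181.8 or more on the control array. The targeted gene Ctnnb1 read 2344 in the knockout and 2325 in the control on its brighter probe (normalized intensity). Where that probe lies relative to the deleted exons is not given, and most cell types of the wound keep the gene, so this value checks nothing about the labels. The epidermal markers Krt10 (29495 in the knockout, 30941 in the control) and Lor (24119 and 24564 in the same order) were bright on both arrays. The widest differences among the marker lists were in muscle, with Myl2 at 4390 in the knockout and 104 in the control, and in red blood cells, with Hba-a1 at 6077 and 21049 in the same order.

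As background, the interleukin 1 family starts inflammation at injured skin through receptors that signal by the adaptor Myd88, and it is held in check by receptor antagonists and decoys. Most other interleukins signal through paired chains bound to Janus kinases, which activate STAT transcription factors. In skin, interleukins released by damaged keratinocytes draw in neutrophils, those of T cells act back on keratinocytes, and IL-4 and IL-13 steer macrophages and matrix repair.

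Most interleukin genes were close on the 2 arrays. Of the 43 detected, 35 (81.4%) lay within 1.5-fold, against 91.9% of all detected genes, and none reached 2-fold, which 1.24% of all detected genes did. The shares in this paragraph are not matched for brightness, and the interleukin genes were more often dim than detected genes at large, as given below. The measured values were 1.5-fold or more higher in the knockout array for 3 (6.98%), beside 3.58% of all detected genes. These were Il1f5 and Il1rl1, which were detected on both arrays, and Il4ra, which the control array did not detect. The measured values were 1.5-fold or more lower for 5 (11.6%), beside 4.48% of all detected genes. These were Il7, Il10 and Il7r, detected on both arrays, and Il4 and Il17d, detected in the control only. A value below the detection limit gives a lower bound of the fold and no more. With genes detected on a single array held to that bound, 2 were at least 1.5-fold higher (Il1f5 and Il1rl1), beside 2.40% of all detected genes. On the same terms 4 were at least 1.5-fold lower (Il7, Il10, Il7r and Il4), beside 3.21%, and Il4ra and Il17d fell short.

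Signs leaned to the lower side among the detected genes. Of the 43 genes, 28 (65.1%) lay below 0 on the log2 scale, against 49.3% of all detected genes, and the median log2 fold was -0.07 against 0.00. With the 4 genes detected on a single array set at their bounds, the median was -0.06. The middle 50% of interleukin genes spanned log2 folds of -0.28 to 0.10, and that of all detected genes -0.19 to 0.18. Over all 76 genes, with no detection filter, 40 (52.6%) lay below 0, against 49.2% of all genes. With detection p-values used as listed, 20 of 40 genes did, against 49.1% of all. Those p-values are out of step with the intensities, so they do not set another detection limit. Among genes detected on both arrays 64.1% lay below 0, against 49.1% of all, and with detection at 0.05 60.4% did, against 50.1%. The lean was thus seen among detected genes and was narrower once genes below the detection limit were added.

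**Figure D1:**
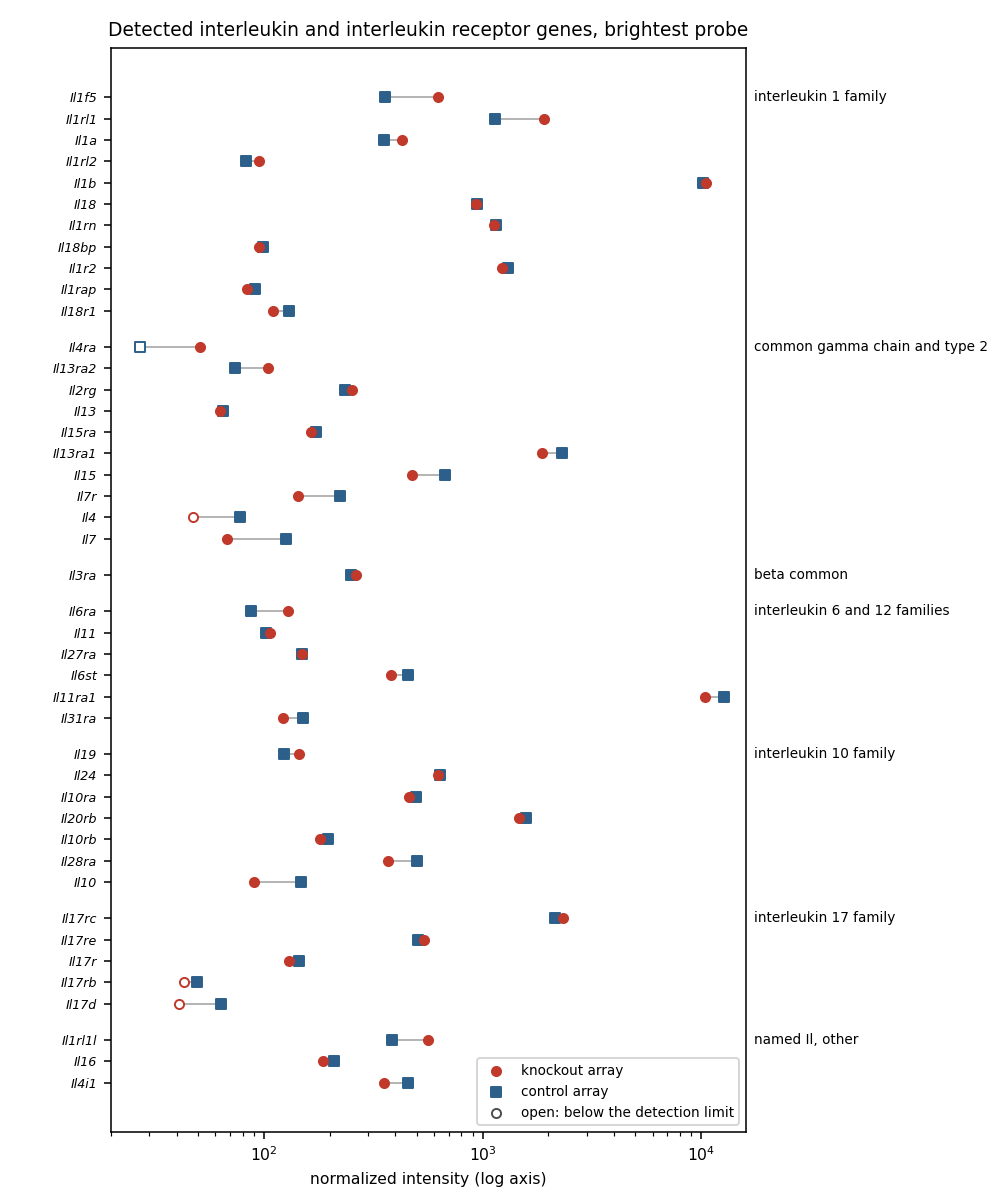
Normalized intensity (log axis) of the 43 detected interleukin and receptor genes, each by its brightest probe, on the knockout array (circles) and the control array (squares), grouped by family; open symbols are below the detection limit. Most pairs nearly coincide, Il1f5 and Il1rl1 stand higher in the knockout, and Il7, Il10 and Il7r stand lower.

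Dim probes scatter more, which bears on the size of every fold given here. When the 9814 detected genes were split by brightness into 4 bins of equal size, the middle 95% of log2 folds ran from -0.92 to 0.92 in the dimmest bin, from -0.67 to 0.58 in the second, from -0.58 to 0.51 in the third and from -0.48 to 0.40 in the brightest. From dimmest to brightest, the bins held 14, 12, 11 and 6 of the 43 interleukin genes. The shares past 1.5-fold given above are thus not matched for brightness. By construction each range holds 95% of all detected genes of its bin, so a few of any 43 genes would lie outside. Of the 43 interleukin genes, 3 lay outside the range of their own bin. These were Il1f5, Il1rl1 and the gene listed as Il1rl1l, all on the higher side. The measured folds of Il7, Il10, Il7r, Il4, Il17d and Il4ra lay inside the range of equally bright genes. The authors' own normalized intensities of dim probes stay near their raw level (Il7 at 189.7 in the knockout and 239.7 in the control). In them Il1f5 (1.55-fold) and Il1rl1 (1.63-fold) stayed past 1.5-fold, and no interleukin gene was 1.5-fold lower.

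**Figure D2:**
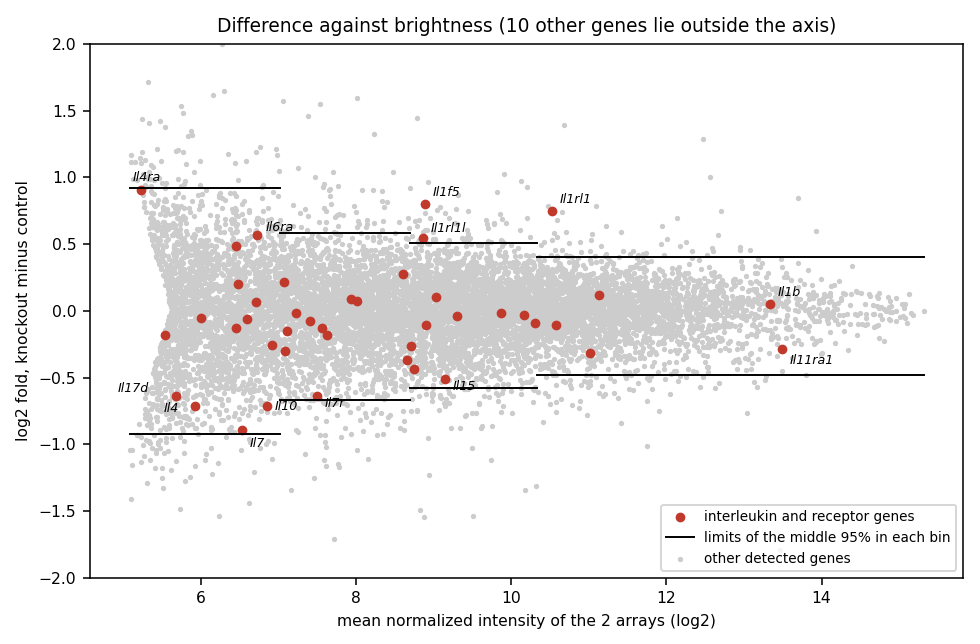
Log2 fold (knockout minus control) against mean normalized intensity (log2) for all detected genes (grey) and the 43 interleukin and receptor genes (red); black lines mark the middle 95% of genes in each of 4 bins of brightness. Il1rl1, Il1f5 and Il1rl1l lie above their lines, and Il7, Il10 and Il7r lie within theirs.

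The interleukin 1 family held 17 of the genes, of which 11 were detected. Of its detected genes, 2 were at least 1.5-fold higher, beside 3.58% of all detected genes, and none was 1.5-fold lower, beside 4.48%. Among its ligands, Il1b, the main secreted form made by neutrophils and macrophages, read 10531 in the knockout and 10156 in the control, a log2 fold of 0.05. Il1a, stored in keratinocytes and released when they break, read 428 in the knockout and 354 in the control (log2 fold 0.28). Il18, which induces interferon gamma in lymphocytes, read 929 and 942 in the same order. None of these ligands stood 1.5-fold apart. Neutrophils are one known source of Il1b. Of 14 neutrophil markers on the array 11 were detected, and they summed to 61104 in the knockout and 48241 in the control. Of these, 10 lay above 0 and 2 (Il8rb and Lcn2) were at least 1.5-fold higher, beside 3.58% of all detected genes. The part of neutrophils in the Il1b value was not tested.

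The antagonists of the family were uneven. Il1f5, the gene of the interleukin 36 receptor antagonist, which is made in the epidermis and binds the receptor chain Il1rl2 without signalling, read 624 in the knockout and 358 in the control. The knockout array was 1.74-fold higher (log2 fold 0.80), the widest difference on the higher side among interleukin genes detected on both arrays. Il1rl2 itself read 95.2 in the knockout and 82.7 in the control (log2 fold 0.20). The agonists Il1f6 and Il1f9 of the same receptor were not detected on either array.

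The other inhibitors did not share the difference of Il1f5. Il1rn, the interleukin 1 receptor antagonist, read 1133 in the knockout and 1157 in the control (log2 fold -0.03). The decoy receptor Il1r2, which binds interleukin 1 and does not signal, read 1232 and 1311 in the same order (log2 fold -0.09). Il18bp, which captures Il18, stood at a log2 fold of -0.06. Il1f5 was read by 1 probe. Of 6 detected keratinocyte markers, 2 lay above and 4 below 0, and none was 1.5-fold apart, beside 91.9% of all detected genes within 1.5-fold. The differentiation markers Ivl (log2 fold 0.02), Krt10 (-0.07) and Lor (-0.03) were close on the 2 arrays. Sfn stood at 0.14 and Trp63 at -0.46, and Perp, detected in the control only, was at least 1.07-fold lower. The part of keratinocytes in the Il1f5 value was not tested.

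Among the receptors of the family, Il1rl1 differed most. It encodes ST2, the receptor for interleukin 33, and gives both a membrane receptor, known on mast cells, type 2 lymphocytes and other cells, and a soluble decoy from alternative transcripts. Its detected probe read 1910 in the knockout and 1138 in the control (raw 1870.1 and 1364.1), 1.68-fold higher in the knockout (log2 fold 0.75). This was the only interleukin gene in the brightest bin outside the range of that bin. A second Il1rl1 probe was under the detection limit on both arrays (raw 148.3 in the knockout and 141.4 in the control). Which transcripts each probe reads is not given in the files.

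Mast cells are a known site of Il1rl1. Of 7 mast cell and basophil markers on the array 5 were detected, 2 above and 3 below 0. None was 1.5-fold apart, beside 91.9% of all detected genes within 1.5-fold. They summed to 17243 in the knockout and 19086 in the control, with Hdc at a log2 fold of -0.13 and Cpa3 at -0.27, and Ms4a2 and Mcpt8 were not detected. The part of mast cells in the Il1rl1 value was not tested. In whole tissue, a different number of cells of a type and a different amount of RNA per cell cannot be told apart.

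RefSeq lists 2 starts for Il1rl1 on GRCm38.p6, 10059 bases apart on the plus strand. The 250 bases before each are shown because the gene is one of the 2 past 1.5-fold in the family and its transcripts begin at separate promoters. Capitals mark AGATAA or its reverse complement, the sequence bound by GATA factors, which stands 217 bases before the upstream start and 103 bases before the downstream start.
Il1rl1 upstream start, chr1:40429320-40429569, plus strand: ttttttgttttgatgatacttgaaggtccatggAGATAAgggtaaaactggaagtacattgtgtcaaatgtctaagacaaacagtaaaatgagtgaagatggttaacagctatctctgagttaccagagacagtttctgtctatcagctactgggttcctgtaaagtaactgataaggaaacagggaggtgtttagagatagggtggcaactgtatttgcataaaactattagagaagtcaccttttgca
Il1rl1 downstream start, chr1:40439379-40439628, plus strand: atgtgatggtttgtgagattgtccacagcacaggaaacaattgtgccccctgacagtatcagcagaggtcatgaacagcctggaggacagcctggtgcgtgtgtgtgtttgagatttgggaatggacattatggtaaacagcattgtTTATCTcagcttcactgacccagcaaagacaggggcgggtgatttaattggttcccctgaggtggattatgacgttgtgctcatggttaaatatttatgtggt
The same motif was found in the 250 bases before the second of the 2 listed Il1f5 starts, 154 bases before it.
Il1f5 second start, chr2:24277021-24277270, plus strand: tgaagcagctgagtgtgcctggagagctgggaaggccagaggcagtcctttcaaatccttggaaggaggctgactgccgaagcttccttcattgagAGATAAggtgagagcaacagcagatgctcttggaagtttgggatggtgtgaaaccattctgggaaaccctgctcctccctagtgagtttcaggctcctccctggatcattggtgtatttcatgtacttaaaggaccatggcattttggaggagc
AGATAA on either strand occurs in 9.99% of 32851 listed promoters of this length and in 7 of the 48 listed for detected interleukin genes.

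The remaining receptors of the family were close on the 2 arrays. Il18r1, the binding chain for Il18, read 110 in the knockout and 131 in the control (log2 fold -0.26). Il1rap, the shared signalling chain, had 4 detected probes of 6, with log2 folds from -0.13 to 0.04, and its brightest read 83.8 in the knockout and 91.6 in the control. Il1r1, the signalling receptor for interleukin 1, fell just outside the detection limit, at raw 177.7 in the knockout against a limit of 177.9 and at 179.3 in the control against 181.8. Just inside the limits were Il4ra at 179.5 in the knockout and Il17rb at 182.6 in the control.

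The gene listed as Il1rl1l carries a name given to a putative ligand of Il1rl1, and its accession belongs to Tmed1, which encodes a protein of transport between endoplasmic reticulum and Golgi. It is a member by its symbol only. Its brighter probe read 561 in the knockout and 385 in the control (log2 fold 0.54), and its other probe 121 and 109 in the same order (log2 fold 0.15).

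The genes that signal through the common gamma chain, with those of IL-4 and IL-13, numbered 16, of which 10 were detected. Of these, Il7, Il7r and Il4 were lower in the knockout array by 1.5-fold or more, and none was shown to be 1.5-fold higher. With genes detected on 1 array held to their bounds, 3.21% of all detected genes were lower and 2.40% higher by as much. The median log2 fold of the 10 genes was -0.19. Il7, which stromal cells and keratinocytes make and which T cells need to survive, read 68.0 in the knockout and 126 in the control, 1.85-fold lower (log2 fold -0.89). Its receptor chain Il7r read 144 in the knockout and 224 in the control on its detected probe, 1.55-fold lower (log2 fold -0.64), with a pair of further probes below detection. Ligand and receptor thus stood on the same side, but the raw values of Il7 were near the limit of detection (194.7 in the knockout and 266.5 in the control), and in the authors' normalized intensities the folds were 1.26 for Il7 and 1.28 for Il7r.

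Il7r is known on T cells. Of 16 T cell and NK cell markers on the array 10 were detected, 5 above and 5 below 0, with a median log2 fold of 0.00. The chemokine Xcl1 was the one marker past 1.5-fold, at 67.7 in the knockout and 156 in the control (2.30-fold lower), and the CD3 chains stood at -0.45 (Cd3g), 0.41 (Cd3d) and 0.09 (Cd3e). The list summed to 7531 in the knockout and 8547 in the control. Thy1 alone gave most of both sums (6067 in the knockout and 6945 in the control), so they mainly follow that gene. Cd4, Cd8a, Cd5 and Cd28 were among the markers not detected. The part of these cells in the Il7r value was not tested.

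The 250 bases before the Il7r start listed by RefSeq are shown because Il7r is the one gene past 1.5-fold on the lower side, detected on both arrays, for which the promoter table has an entry. Capitals mark the reverse complement of AGGAAGT, a sequence bound by Ets factors, 49 bases before the start. AGGAAGT on either strand occurs in 7.69% of all listed promoters and in 6 of the 48 of detected interleukin genes.
Il7r, chr15:9529877-9530126, minus strand: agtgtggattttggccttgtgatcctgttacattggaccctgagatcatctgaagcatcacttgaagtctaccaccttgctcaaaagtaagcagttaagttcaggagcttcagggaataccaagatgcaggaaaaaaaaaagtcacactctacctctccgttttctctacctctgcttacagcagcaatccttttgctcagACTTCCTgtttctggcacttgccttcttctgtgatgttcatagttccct
On either strand, the STAT motif TTCNNNGAA was present in 6 of the 48, beside 7.02% of all, and the AP-1 motif TGANTCA in 7, beside 6.75%. The STAT motif is left unmarked in the sequences shown, where it stands 142 bases before the Il7r start and 98 bases before the second Il1f5 start. The interferon-stimulated response element was present in 2 of the 48, beside 2.98% of all.

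Il15, which sustains NK cells and memory T cells, was lower on each of its 3 probes, all detected on both arrays. The brightest read 476 in the knockout and 677 in the control, 1.42-fold lower (log2 fold -0.51). The other probes stood at -0.53 and -0.12. Il15ra, which presents Il15 to neighbouring cells, read 165 in the knockout and 174 in the control on its brightest probe, and its 3 detected probes ran from -0.26 to 0.21. Il2rg, the common gamma chain itself, read 252 and 236 in the same order (log2 fold 0.09). Il15 was thus short of 1.5-fold on every probe and held its sign on all of them (with median scaling its brightest probe passed 1.5-fold, at -0.64), whereas the probes of its receptor disagreed in sign.

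In the IL-4 and IL-13 system, Il4 was detected in the control only, at a normalized 47.3 in the knockout and 77.6 in the control, at least 1.57-fold lower. Il4ra, its signalling chain, read 51.0 in the knockout and 27.3 in the control, where it was below detection, and was at least 1.05-fold higher. Both lie at the edge of detection, and their folds in the authors' normalized intensities were 1.15 for Il4 and 1.16 for Il4ra. Il13 read 62.8 in the knockout and 65.1 in the control (log2 fold -0.05).

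The chains for IL-13 differed from each other. Il13ra1, which pairs with Il4ra to signal, read 1863 in the knockout and 2316 in the control (log2 fold -0.31). The decoy Il13ra2 read 104 and 74.1 in the same order (log2 fold 0.49). Neither reached 1.5-fold. Of the 4 genes with an Il name whose receptors use the related common beta chain, Il3ra alone was detected, at 264 in the knockout and 251 in the control (log2 fold 0.08).

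The interleukin 6 and 12 families held 14 genes, of which 6 were detected. None was 1.5-fold apart, beside 91.9% of all detected genes within 1.5-fold. Il6, the cytokine that drives the acute response, was below detection (raw 151.4 in the knockout and 169.6 in the control). Il6ra, its binding chain, read 129 in the knockout and 87.0 in the control (log2 fold 0.57, just under 1.5-fold), and Il6st, the signalling chain gp130 shared by the family, read 380 and 458 in the same order (log2 fold -0.27). Il11ra1, the receptor for Il11, read 10410 in the knockout and 12685 in the control (log2 fold -0.29). The mouse genome holds close copies of Il11ra1, which a probe cannot be taken to tell apart. Il11 (log2 fold 0.06) and Il27ra (-0.02) were level, and Il31ra, an itch receptor chain, stood at -0.30.

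The interleukin 10 family held 11 genes, of which 7 were detected, 6 of them below 0. Il10, which damps inflammatory macrophages, read 90.5 in the knockout and 148 in the control, 1.64-fold lower (log2 fold -0.71). In the authors' normalized intensities it was 1.24-fold lower. Its receptor chains did not reach 1.5-fold, with Il10ra at 459 in the knockout and 494 in the control (log2 fold -0.11) and Il10rb at 180 and 197 in the same order (-0.13). Monocytes and macrophages are one known source of Il10. Of 12 of their markers on the array 8 were detected, all below 0. Mrc1 alone was 1.5-fold lower (6440 in the knockout, 10952 in the control), and the others ran from -0.35 (C1qa) to -0.09 (Cd68). The markers summed to 28583 in the knockout and 36658 in the control, a difference to which Mrc1 gave the largest part. Ccr2, Cx3cr1 and Msr1 were among those not detected. The part of these cells in the value of Il10 was not tested.

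Il28ra, now named Ifnlr1, is the receptor chain for interferon lambda, which acts on epithelia. Its brightest probe read 370 in the knockout and 501 in the control (log2 fold -0.44), and its other detected probe stood at -0.52. The skin-acting cytokines of the family were level. Il24, made by keratinocytes at wounds, read 624 in the knockout and 641 in the control (log2 fold -0.04), and Il19 read 145 and 124 in the same order (0.22). Il20rb, the chain shared by receptors for both, read 1470 in the knockout and 1583 in the control (-0.11), with its other detected probe at 0.02.

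The interleukin 17 family held 11 genes, of which 5 were detected, 4 of them receptors. Il17rc, which pairs with Il17ra, read 2339 in the knockout and 2155 in the control on its brightest probe, and its 3 probes ran from -0.18 to 0.13. Il17r, now named Il17ra, read 131 and 145 in the same order (log2 fold -0.15). Il17re, the epithelial receptor for Il17c, read 542 in the knockout and 505 in the control on its brightest probe (0.10), although its other detected probes stood at -0.30 and -0.73, the last of them detected in the control only. The probes of Il17re thus disagree in sign, and the brightest was used.

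Il17d was the sole ligand of the family detected, in the control only. It read 40.9 in the knockout and 63.7 in the control, at least 1.29-fold lower (1.11-fold in the authors' normalized intensities). Il17rb, the receptor for Il17e (now Il25), was also detected in the control only, at 43.4 in the knockout and 49.3 in the control, with no bound above 1. The genes of the classical cytokines of the family, Il17 and Il17f, were not detected.

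**Figure D3:**
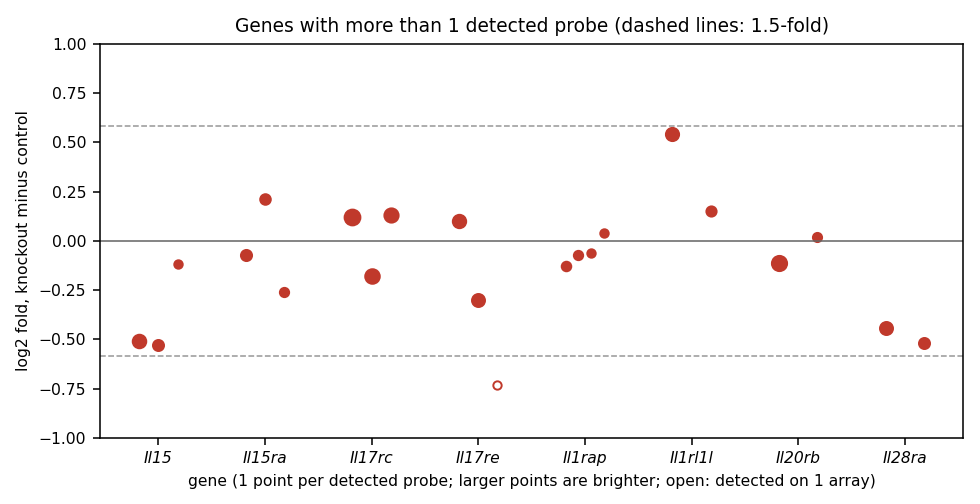
Log2 fold (knockout minus control) of each detected probe for the 8 genes with more than 1 detected probe; larger points are brighter, the open point is a probe detected on 1 array, and dashed lines mark 1.5-fold. The probes of Il15 and Il28ra lie below 0 without exception, those of Il1rl1l lie above 0, and those of the other 5 genes fall on both sides.

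Of the symbols that belong to no cytokine family, Il4i1 encodes an amino acid oxidase of myeloid cells that IL-4 induces. It read 354 in the knockout and 457 in the control (log2 fold -0.37). Il16, a chemoattractant for CD4 cells cut from a larger protein, read 186 and 210 in the same order (-0.18).

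Detection was more frequent among receptors (23 of 36 genes) and antagonists or decoys (5 of 6) than among ligands (12 of 31). In the 33 undetected genes the brightest probe read between 139.4 and 177.7 raw in the knockout and between 132.0 and 179.3 in the control, so a transcript at low level would not be seen. Besides those named above, the undetected ligands were Il12a, Il12b, Il17b, Il17c, Il17e, Il1f10, Il20, Il21, Il22, Il23a, Il27, Il3, Il5 and Il9. The receptors were Il12rb1, Il12rb2, Il17rd, Il18rap, Il1rapl2, Il21r, Il22ra1, Il23r, Il2ra, Il2rb, Il5ra and Il9r, with the decoy Il22ra2. Differences between the arrays are not read for them.

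The detected genes that carry interleukin signals into the cell lay within 1.5-fold, as did 91.9% of all detected genes. Of 17 detected Janus kinase, STAT and feedback inhibitor genes, none was 1.5-fold apart, with a median log2 fold of -0.09. The ends of their range were Stat2 at -0.48 and Socs6 at 0.54. The brightest of them were Socs3 (3570 in the knockout, 3622 in the control), Stat3 (1721 and 1653 in the same order) and Cish, a target of gamma chain cytokines (1288 and 1559). Of 8 detected genes for interleukin 1 processing and adaptors, none was 1.5-fold apart, with Myd88 at a log2 fold of 0.04, the processing enzyme Casp1 at -0.31 and Tollip at -0.10. The related cytokines and partner chains without an Il name had 13 detected members and none past 1.5-fold, with oncostatin M (Osm) at -0.31, its receptor Osmr at -0.19 and Csf1r at -0.15.

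Among genes known to answer interleukins, some stood past 1.5-fold. In the list for IL-4 and IL-13, 9 genes were detected, of which 5 were lower by 1.5-fold or more (4.48% of all detected genes were) and 1 was higher by as much (3.58% of all), with a median log2 fold of -0.59 against 0.00 over all detected genes. The mannose receptor Mrc1 read 6440 in the knockout and 10952 in the control, and the resistin-like Retnla read 1139 and 1850 in the same order. The eosinophil chemokine Ccl11 stood at a log2 fold of -0.66. Ccl17, a T cell chemokine, stood at a log2 fold of -0.70 and the lectin Mgl2 at -0.59, both short of 1.5-fold in the authors' normalized intensities (1.18 and 1.47).

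The list did not move as a whole. The chitinase-like Chi3l3 was 1.85-fold higher in the knockout (1230 in the knockout, 665 in the control), and Arg1, the arginase of repair macrophages, was level at 6864 and 6027 in the same order, as was Tgm2 (log2 fold -0.13). Mrc1 is also the only macrophage marker past 1.5-fold, the others lying below 0 by less, as given above. Several of these genes are made mainly by macrophages and dendritic cells. Of 10 Langerhans and dendritic cell markers on the array 6 were detected, 5 of them below 0, with a median log2 fold of -0.44 and sums of 16716 in the knockout and 22363 in the control. Cd207, a Langerhans cell lectin, stood at -0.74, Cd209a at -0.65, H2-Ab1 at -0.45, H2-Eb1 at -0.42 and H2-Aa at -0.05. Xcr1 went the other way, detected in the knockout only and at least 1.28-fold higher. Itgax, Flt3, Clec9a and Ccr7 were not detected. The part of either cell type in these values was not tested.

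In the list for the keratinocyte response to IL-17 and IL-22, 10 genes were detected, of which 3 were higher by 1.5-fold or more, beside 3.58% of all detected genes, and none was lower by as much, with a median log2 fold of 0.22. The beta-defensin Defb4 read 299 in the knockout and 146 in the control, 2.06-fold higher. The iron-binding Lcn2 read 8557 in the knockout and 4273 in the control, and the ribonuclease Zc3h12a, a brake on interleukin messages, was 1.76-fold higher (447 in the knockout, 254 in the control). S100a8 (0.14) and S100a9 (0.36) were nearer 0, and Cxcl1, chosen after its value was seen, stood at -0.51. The ligands Il17, Il17f and Il22 were not detected. Lcn2, S100a8 and S100a9 are also on the neutrophil list and are its brightest genes, so the higher sum of that list is largely their own. The other detected markers of that list ran from -0.25 (Itgam) to 0.95 (Il8rb). The part of neutrophils in these values was not tested.

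In the list for interleukin 6 and STAT3, 1 of 10 detected genes was at least 1.5-fold higher, beside 3.58% of all detected genes, and none was shown to be 1.5-fold lower, with a median of 0.09. Timp1, a protease inhibitor, read 19164 in the knockout and 12659 in the control (log2 fold 0.60). Pim1, a kinase (at least 1.13-fold lower), and Fgl2 (at least 1.49-fold lower) were detected in the control only, and were 1.12-fold and 1.15-fold lower in the authors' normalized intensities. The acute-phase genes Hp (0.08) and Saa3 (0.24) were close on the 2 arrays.

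**Figure D4:**
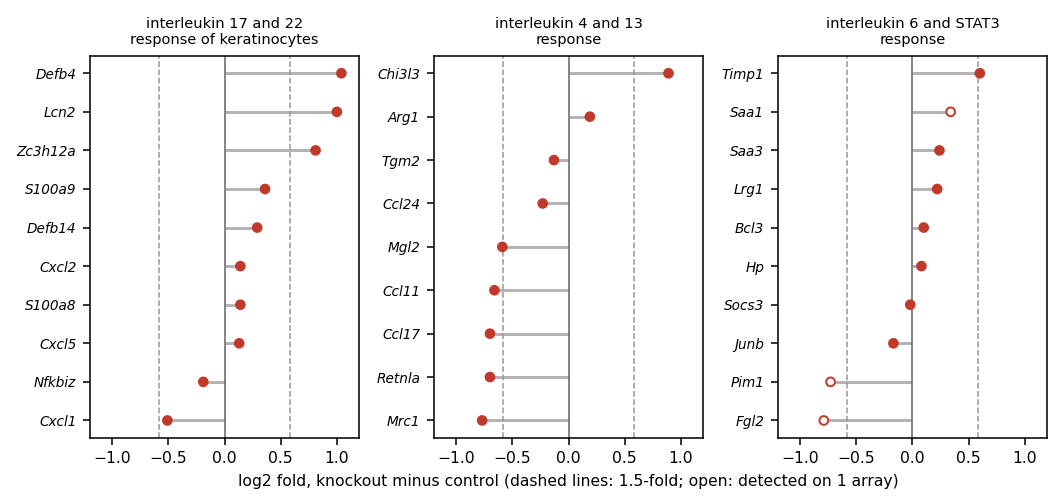
Log2 fold (knockout minus control) of the detected members of 3 lists of interleukin-responsive genes; open points were detected on 1 array and dashed lines mark 1.5-fold. In the IL-17 and IL-22 list 8 of 10 genes lie above 0, in the IL-4 and IL-13 list 7 of 9 lie below 0, and in the IL-6 list 6 of 10 lie above 0.

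**Figure D5:**
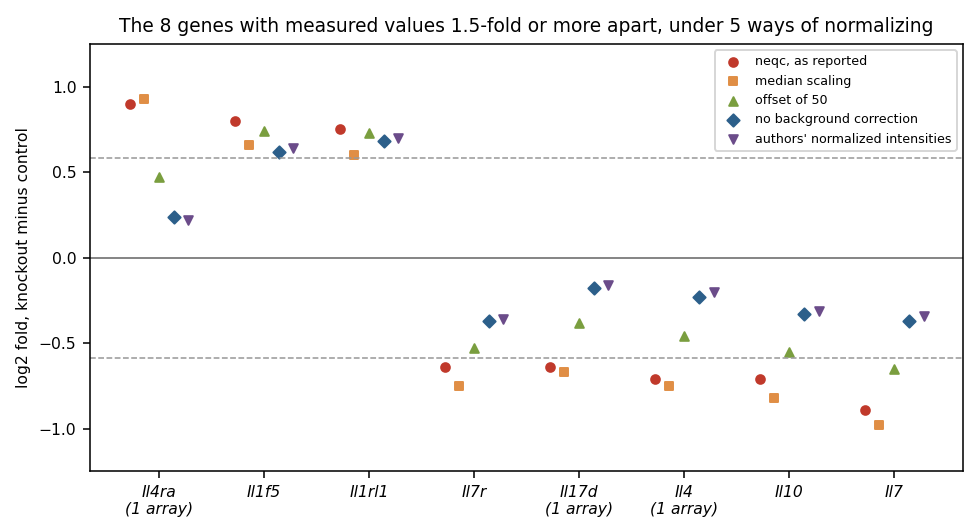
Log2 fold (knockout minus control) of the 8 interleukin genes whose measured values were 1.5-fold or more apart, under 5 ways of normalizing the same 2 arrays (Il4ra, Il17d and Il4 were detected on 1 array, so their folds are not firm); dashed lines mark 1.5-fold. Il1f5 and Il1rl1 stay above the upper line throughout. The 5 lower genes and Il4ra come inside the lines without background correction and in the authors' normalized intensities, and all of them but Il7 do so with an offset of 50.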

How the data were processed

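Total RNA of wounded skin was labelled with biotin and read on an Illumina bead array, per the labels' protocols. The deposited tables hold linear probe intensity before and after the authors' normalization, and detection p-values. How the authors normalized is not stated. The submitters' processing notes name GenomeStudio 2011.1. The deposited p-values are out of step with the intensities beside them (rank correlation 0.00244 over the control's probes), so the sorted p-values of each array were given to its sorted intensities, and a probe was detected below 0.01.

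The raw values were passed through neqc (limma 3.58.1, R 4.3.3: normexp background fitted from detection p-values, offset 16, quantile normalization and log2), a procedure tested on simulated data. Values are given on the linear scale. The offset shrinks folds of dim probes. Each gene symbol of the file was represented by its brightest probe, and current names came from RefSeq (GRCm38.p6), matched for 103 of 108 probes by accession. Promoter sequences are from RefSeq. For a gene detected on 1 array, the fold is a lower bound: its value there over the other array's lowest detected level or its own level there, whichever was higher.

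No test was possible with a single array a group, and genes were counted at 1.5-fold. Every detected interleukin gene is named, with both values where it was 1.5-fold apart, had several detected probes or was among the 10 brightest. Genes of the other lists are named where 1.5-fold apart or among the 3 brightest of their list, and cell type markers as examples chosen after their values were seen. Members and lists were chosen with earlier results of these data known.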

Additional observations from a re-analysis of the deposited data

How the results depend on the processing

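The 2 arrays have no replicates, and most interleukin genes are near the background, which limits every fold. No paired analysis was possible because each group has a single array. The count of interleukin genes at least 1.5-fold lower, 5 as reported, was 0 in the authors' normalized intensities and 0 without background correction, 1 with a background offset of 50, 3 among genes detected on both arrays and 1 with the detection p-values as listed. It was 6 with median scaling, which adds Il15, 6 with each probe counted on its own, which adds Il17re, and 4 when the bound stood in for the fold of single-array genes, an alternative added after seeing the data. The count at least 1.5-fold higher, 3 as reported, lay between 2 and 4 under the 11 alternatives. The median log2 fold was -0.18 with median scaling, which moved the median of all detected genes to -0.10. With no detection filter 76 genes entered, against 43. Each of the 8 genes with measured values 1.5-fold or more apart has 1 detected probe. Only the alternatives in normalization or background can change the fold of such a gene, and the others decide only which genes are kept. Il1f5 (lowest log2 fold 0.62) and Il1rl1 (lowest 0.60) stayed past 1.5-fold under all alternatives in normalization or background. None of the 8 genes changed sign under them.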

Other observations

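Il1rl1 lies in a run of 6 receptor genes on chromosome 1 with no other protein-coding gene between them in the RefSeq table (GRCm38.p6), in the order Il1r2, Il1r1, Il1rl2, Il1rl1, Il18r1 and Il18rap. Of these, 4 were detected, and Il1rl1 alone was 1.5-fold apart (log2 fold 0.75), with its neighbours Il1rl2 at 0.20 and Il18r1 at -0.26 and the decoy Il1r2 at -0.09. In the type 2 cytokine cluster of chromosome 11, Il4 was detected in the control only, Il13 was level (log2 fold -0.05) and Il5 was not detected.

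By role, genes detected on 1 array were held to their bounds. Of 12 detected ligands, Il4, Il7 and Il10 were lower by 1.5-fold or more and none was higher by as much. Of 23 detected receptors, Il1rl1 was higher and Il7r lower. On the same terms 3.21% of all detected genes were lower and 2.40% higher. The median log2 fold of the measured values was -0.05 for ligands, -0.11 for receptors and -0.03 for antagonists and decoys. Il4, Il7 and Il10 were in the dimmest of 4 brightness bins of detected genes, where the middle 95% of log2 folds ran from -0.92 to 0.92.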
